A study of Mus musculus with 15 samples.

Results

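The 10 genes described here, Fbxw14, Fbxw15, Fbxw16, Fbxw18, Fbxw19, Fbxw20, Fbxw21, Fbxw22, Fbxw24 and Fbxw28, are F-box genes of a single cluster on mouse chromosome 9, and they were taken by symbol from the 55401 genes counted in each library. Full-length cDNA (SMART-Seq2) was sequenced from 15 pools of 6 germinal vesicle oocytes, in 5 groups of 3 libraries. IVV oocytes had grown in vivo and were collected by puncture of antral follicles, whereas IVG oocytes came from preantral follicles cultured for 6 or 10 days, and IVG-NT oocytes from follicles cultured for the same times with neurotrophin-4 (NT-4), a ligand of the receptor TRKB. All animals were Kunming mice, without a transgene or deletion, and each library pooled oocytes, so differences between single oocytes were not measured. The cultured follicles came from mice 12 to 14 days old; the series text gives this age for the oocytes as a whole, but the age of the mice whose antral follicles gave the IVV oocytes is not stated separately, and any difference in age cannot be told apart from growth in vivo in the comparisons with IVV.

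F-box proteins are the substrate-binding subunits of SCF ubiquitin ligases, in which the adaptor SKP1 links the F-box to the scaffold CUL1 and the RING protein RBX1. In the FBXW class the substrate is held by WD repeats. Rodents carry an expanded set of FBXW genes expressed mainly in oocytes, where regulated protein degradation accompanies growth, meiotic arrest and the passage to the embryo. FBXW15 is known to promote degradation of the histone acetyltransferase HBO1, and FBXW24 has been linked to turnover of the synaptonemal complex protein SYCP3 in meiotic prophase.

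In GRCm38 the cluster spans chr9:109139447-109790670, 651224 bases in which 24 genes are annotated (GENCODE vM21). The 14 protein-coding genes of this span all bear Fbxw names, and 1 Fbxw pseudogene, Fbxw23, lies among them. All 15 Fbxw genes are on the minus strand. From low to high coordinate the 10 genes follow the order Fbxw21, Fbxw20, Fbxw14, Fbxw28, Fbxw22, Fbxw16, Fbxw19, Fbxw15, Fbxw24 and Fbxw18. Transcript identity over the 45 pairs ranged from 72.22% to 92.16%, with a median of 82.51%. The highest value was between Fbxw14 and Fbxw22.

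Stretches of 100 bases shared without a mismatch were few except in a single pair. Of the 100-base windows of the transcripts, 39.2% in Fbxw14 and 42.3% in Fbxw28 occurred in the other gene. No other member shared more than 2.01% with the rest of the cluster. Shorter stretches were shared more widely. Of the 50-base windows, 58.9% in Fbxw14 and 61.5% in Fbxw28 occurred elsewhere in the cluster. In the other members this share was 5.77% (Fbxw24) to 12.4% (Fbxw16). None of the windows occurred in a transcript outside the cluster. Counts of Fbxw14 and Fbxw28 are therefore uncertain with respect to each other, since reads from the shared stretches can be assigned to either. The spans of Fbxw16 and Fbxw15, introns included, also overlap annotated genes on the opposite strand (2 and 1 genes). Whether their exons overlap was not examined. Where exons do overlap, reads cannot be told apart without strand information.

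The bases just before the RefSeq start sites are shown because the median identity of pairs was higher there than in the transcripts. RefSeq promoters (GRCm38.p6) were matched for 9 of the 10 genes, Fbxw22 being the exception, and the 250 bases before the start had a pairwise identity of 82.91% to 96.8% (median 90.16%, 36 pairs). The transcript median also covers the pairs with Fbxw22. Not every pair followed the medians: Fbxw20 with Fbxw16 had 82.91% before the start and 86.36% in the transcripts. The last 110 bases before the start are given 5′ to 3′ on the minus strand, with capitals marking CAGCTG and TTTAAAA, for Fbxw24 (chr9:109626060-109626169), Fbxw15 (chr9:109568263-109568372), Fbxw14 (chr9:109287677-109287786), Fbxw28 (chr9:109339660-109339769) and Fbxw20 (chr9:109234755-109234864).
Fbxw24: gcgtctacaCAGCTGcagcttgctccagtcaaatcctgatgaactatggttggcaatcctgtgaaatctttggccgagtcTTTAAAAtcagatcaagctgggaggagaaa
Fbxw15: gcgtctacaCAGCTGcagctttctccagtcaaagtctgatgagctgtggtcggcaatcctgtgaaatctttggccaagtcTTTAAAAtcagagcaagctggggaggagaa
Fbxw14: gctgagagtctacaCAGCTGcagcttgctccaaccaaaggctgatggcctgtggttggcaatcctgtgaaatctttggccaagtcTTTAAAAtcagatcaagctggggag
Fbxw28: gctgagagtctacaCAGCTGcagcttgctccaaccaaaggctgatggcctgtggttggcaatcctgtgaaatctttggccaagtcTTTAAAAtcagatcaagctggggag
Fbxw20: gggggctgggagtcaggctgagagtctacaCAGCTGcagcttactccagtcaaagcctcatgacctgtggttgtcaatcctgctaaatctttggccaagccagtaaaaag

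The stretches of Fbxw14 and Fbxw28 are the same letter for letter. CAGCTG, a form of the E-box CANNTG, was found within 250 bases of the start in 9 of 9 promoters and in 13.0% of the 32851 promoters of the table. TTTAAAA was found in 8 of 9, all but Fbxw20, and in 8.1% of the table. CANNTG itself was present in 9 of 9 (66.2% of the table), TGATTG in Fbxw16 alone (12.7%), and neither TATAAA (12.4%) nor TAATTG (7.17%) in any of the 9. Each motif was searched on both strands, every CAGCTG is also a CANNTG, and CAGCTG and TTTAAAA were added after the sequences had been seen. The promoters of the cluster are alike in sequence, so matches in 9 of 9 are not 9 independent observations to set against the table. Such matches describe letters and not binding sites.

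The libraries held 5954262 to 55593251 counts. In 9 libraries a single ribosomal RNA gene took 12.5% to 37.9% of all counts (rRNA-rich libraries: replicate 3 of IVV and replicates 1 and 2 of each cultured group), and in the other 6 it took 0.187% to 0.714% (rRNA-poor libraries). Every group holds both kinds, but IVV holds 2 rRNA-poor libraries and each cultured group only 1. Replicates 1 and 2 of IVG-NT day 6 were the shallowest, with 5954262 and 7125348 counts, and correlated with replicate 3 of their group at a Spearman coefficient of 0.587 and 0.581. All 20 oocyte markers were detected in every library. The summed level of 15 granulosa cell markers was 50.1 to 441 normalized CPM (counts scaled to one library size with TMM factors), against 18250 to 33760 for the oocyte markers, and the 10 theca and stroma markers together reached at most 36.6 and the 10 macrophage and blood cell markers at most 66.2. The granulosa marker Amh was at 0 in 13 of 15 libraries and the theca marker Insl3 in all 15. Other markers of these lists were present. Nr5a2 and Gja1, of the granulosa list, had medians of 43.8 and 28.7 normalized CPM and were at 0 in no library. Inha, of the same list, had a median of 33.1 and reached 119. Of the theca and stroma list Cyp17a1 reached 16.9, and of the macrophage and blood cell list C1qb reached 63.1.

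All 10 Fbxw genes were abundant in every library. Normalized CPM serve to compare libraries, and levels of different genes are compared per length, as FPKM over the annotated exons. Fbxw24 was the most abundant of the 10 in 15 of 15 libraries, with a median of 1662 FPKM and a range of 934 to 2820. Fbxw18 followed with a median of 706.5 FPKM and Fbxw15 with 548. Fbxw22 had the lowest median, 142 FPKM, and the lowest value in 13 of 15 libraries. Its smallest count in any library was 410, so that no member was near the detection limit.

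The order below Fbxw24 was less sharp. In each of the 5 groups Fbxw24 exceeded the next gene in 3 of 3 libraries, by a mean log2 FPKM difference of 0.90 in IVV and of 1.02 to 1.59 in the cultured groups, each larger than its SD. Fbxw15 and Fbxw18, the next pair, did not differ beyond their spread in any group: their order was Fbxw15 first in IVV (difference 0.08, SD 0.29) and Fbxw18 first in the others (0.04 to 0.21, SD 0.35 to 0.54). Fbxw28 exceeded Fbxw14 in every library of IVV (mean log2 FPKM difference 0.33, SD 0.17) and of IVG day 10 (0.40, SD 0.10). The same held in IVG-NT day 10 (0.46, SD 0.28) and IVG day 6 (0.38, SD 0.29). In IVG-NT day 6 Fbxw28 was at 384, 368 and 1423 FPKM and Fbxw14 at 99.4, 342 and 1043. The sequence shared by this pair leaves the split of reads between them uncertain. In IVG-NT day 10 and IVG day 6, Fbxw16 and Fbxw28 were neighbours whose log2 FPKM differed by 0.04 (SD 0.39) and 0.002 (SD 0.44). Fbxw19 depended most on the length used, as its exons sum to 3487 bases and its longest coding transcript to 1483 bases: its rank was 7 of 10 by exon length and 3 of 10 by the coding transcript.

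**Figure D1:**
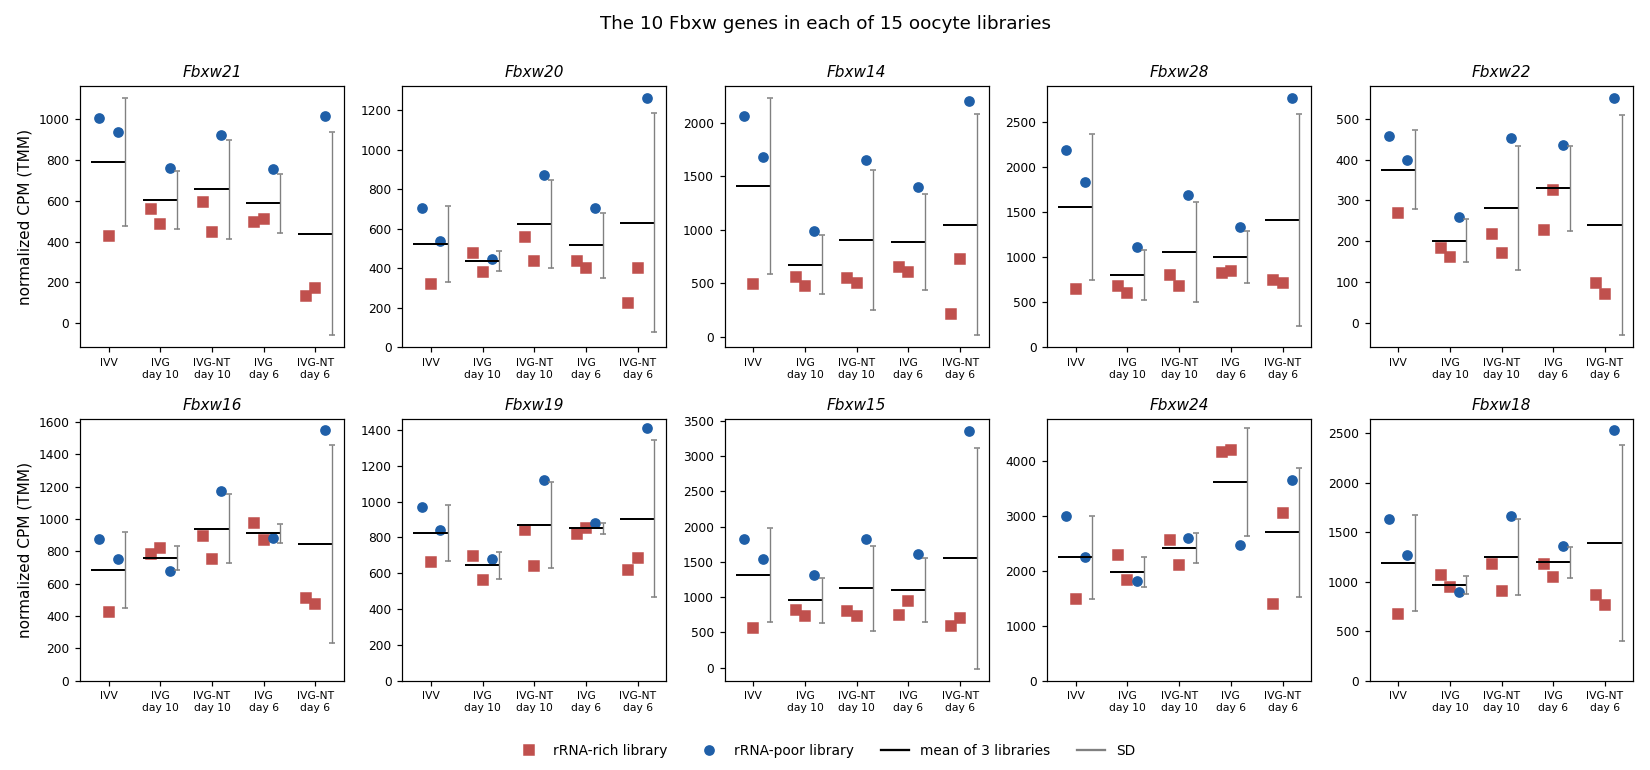
Normalized CPM (TMM-scaled, linear axis, vertical) of each of the 10 Fbxw genes in the 3 libraries of the 5 groups (horizontal), with red squares for rRNA-rich and blue circles for rRNA-poor libraries, a black line for the group mean and a grey bar for the SD. The rRNA-poor library of IVG-NT day 6 is the highest of 15 for 9 of the 10 genes, and Fbxw24 is highest in the 2 rRNA-rich libraries of IVG day 6, at 4163 and 4195.

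The levels of several members were separated by the kind of library. In Fbxw14 the normalized CPM was 2063, 488 and 1677 in IVV replicates 2, 3 and 4, 558, 471 and 988 in IVG day 10 replicates 1 to 3, and 545, 498 and 1655 in IVG-NT day 10. At day 6 it was 653, 603 and 1399 in IVG and 210, 723 and 2204 in IVG-NT. The 6 rRNA-poor libraries, at 988 to 2204, all lay above the 9 rRNA-rich libraries, at 210 to 723.

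Fbxw15 had 1829, 560 and 1542 normalized CPM in IVV, and at day 10 it had 819, 731 and 1317 without NT-4 and 809, 738 and 1826 with it. At day 6 its values were 752, 941 and 1620 without and 587, 709 and 3353 with NT-4. Fbxw28 had 2195, 647 and 1836 in IVV, 686, 608 and 1118 in the day 10 cultures without NT-4 and 802, 678 and 1695 in those with it, and at day 6 831, 852 and 1341 without and 749, 718 and 2777 with it. In both genes every rRNA-poor library was above every rRNA-rich library. Fbxw21 was separated in the same way, at 754 to 1013 normalized CPM in rRNA-poor and 133 to 595 in rRNA-rich libraries. In the remaining members the ranges of the kinds overlapped.

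Fitted within groups (edgeR, kind of library as a second term), the log2 difference of rRNA-rich minus rRNA-poor libraries was -1.61 ± 0.26 (SE) for Fbxw14 (adjusted p = 0.000747), -1.41 ± 0.21 for Fbxw15 (adjusted p = 0.00038) and -1.26 ± 0.19 for Fbxw28 (adjusted p = 0.000417). Fbxw21 and Fbxw22 fell by 1.23 ± 0.28 and 1.21 ± 0.29 (adjusted p = 0.00688 and 0.00949), and Fbxw20 and Fbxw18 by 0.96 ± 0.25 and 0.74 ± 0.23 (adjusted p = 0.0154 and 0.0296). Fbxw16, Fbxw19 and Fbxw24 did not pass, at -0.61 ± 0.24, -0.49 ± 0.18 and -0.17 ± 0.24 (adjusted p = 0.0849, 0.0695 and 0.642).

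Thus 7 of 10 genes were lower and 0 higher in rRNA-rich libraries at an adjusted p under 0.05. Of the 21009 genes tested 23.7% passed in either direction and 15.3% were lower, and the median log2 difference over all genes was -0.54, against -1.08 for the 10 genes. Of all genes 40.5% lay below this median of the 10 genes. The size of these differences is relative to that shift, which itself depended on the libraries: without the 2 shallow IVG-NT day 6 libraries it was -0.14, and Fbxw14 stood at -1.50 and Fbxw15 at -1.21. The kinds were defined by the share of ribosomal RNA in the files and not by a label, and depth differs between them (5954262 to 43454380 counts in rRNA-rich, 38502847 to 55593251 in rRNA-poor libraries). The part of depth in the difference was not tested.

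The make-up of the summed Fbxw counts also differed by kind. Fbxw24 took 18.0% to 20.9% of the counts of the 10 genes in the rRNA-poor libraries and 25.0% to 39.6% in the rRNA-rich ones. Fbxw14 took 10.8% to 14.0% in rRNA-poor and 3.90% to 9.32% in rRNA-rich libraries, and Fbxw15 12.4% to 16.5% and 7.13% to 10.9%. The ranges of these 3 shares did not overlap, while those of the other 7 members did. Shares of a whole are not independent of each other. The median shares of Fbxw18 and Fbxw19 were also higher in the rRNA-rich libraries, at 12.3% and 8.68% against 11.3% and 7.22%.

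In total the 10 genes made up 0.501% to 1.02% of all counts in rRNA-rich and 1.12% to 2.48% in rRNA-poor libraries. Counted without the ribosomal RNA gene the ranges were 0.715% to 1.26% and 1.12% to 2.48%. The largest sum was 20310 normalized CPM in replicate 3 of IVG-NT day 6, and the smallest, 5386, in replicate 1 of the same group. In a pool of 6 oocytes, fewer oocytes expressing a gene and less RNA per oocyte cannot be told apart.

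**Figure D2:**
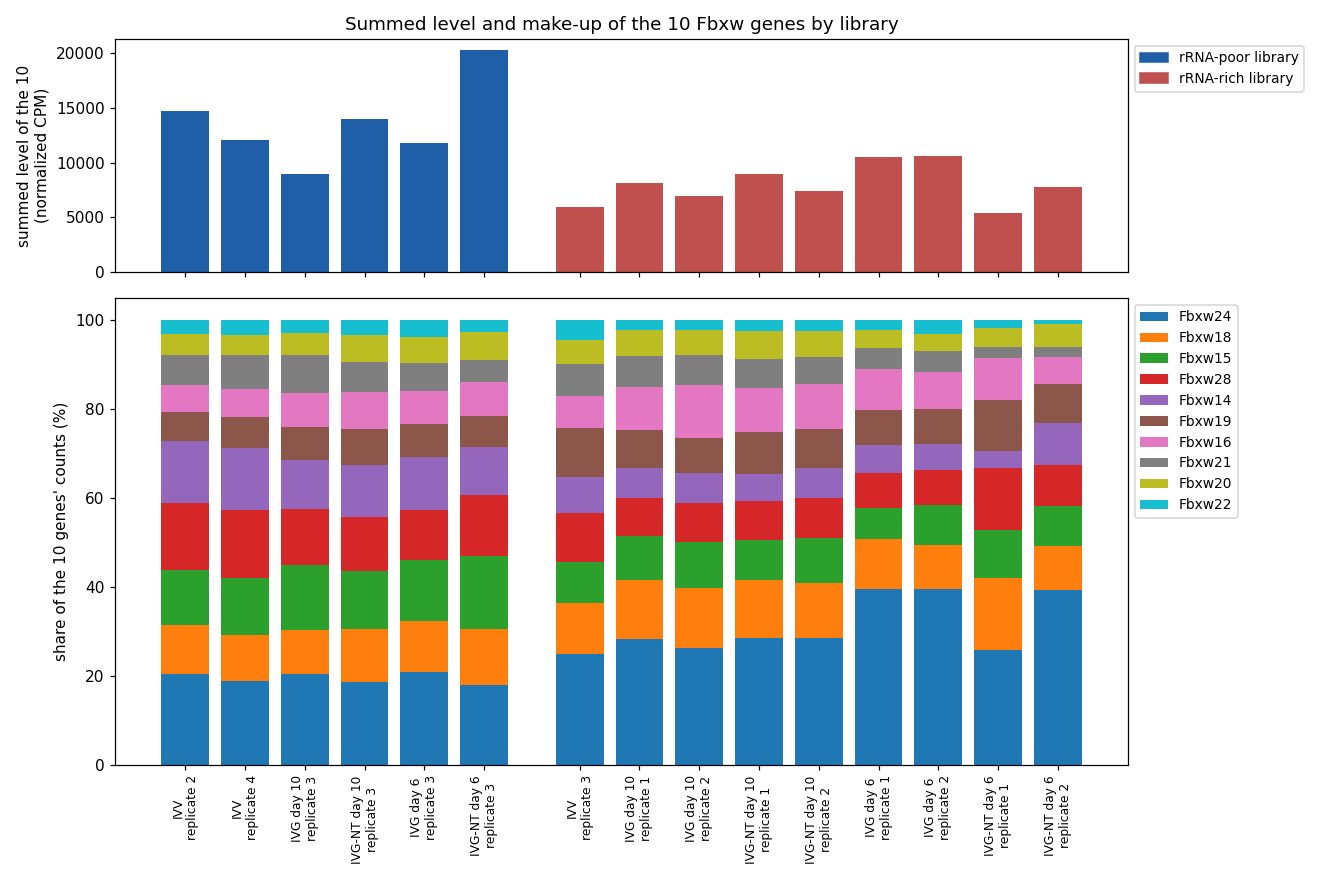
Summed level of the 10 Fbxw genes (upper bars, normalized CPM) and the share of each gene in their summed counts (lower stacked bars, percent) in the 15 libraries, with the 6 rRNA-poor libraries on the left and the 9 rRNA-rich libraries on the right. The Fbxw24 segment at the base is 18.0% to 20.9% on the left and 25.0% to 39.6% on the right.

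In the comparisons between groups, genes were called differentially expressed (DEG) by the rule of the study, an absolute log2 fold change above 1 with an unadjusted p under 0.05, in edgeR's quasi-likelihood test over all 15 libraries. All 10 genes passed the filter on low counts. In each of the 6 comparisons, and in the difference of the NT-4 effect between the days, 0 of 10 passed the rule, and 0 of 10 had an unadjusted p under 0.05. DESeq2 also gave 0 of 10 at an unadjusted p under 0.05, with 0.115 as the lowest p. No gene of the table had an edgeR adjusted p under 0.05 in any of them, while DESeq2 gave 51 to 715 such genes, none of them a member. This edgeR fit held group means only and no term for kind of library. Its SEs for a member in a comparison of groups were 0.49 to 0.80 on the log2 scale. A change of less than 1 log2 unit was therefore not detectable in this fit. The members' SEs in a fit with a term for kind are not given here. Larger changes could also be missed: Fbxw14 at -1.07 ± 0.80 in IVG day 10 against IVV had an unadjusted edgeR p of 0.1975. These counts therefore do not show that levels were equal.

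The first question was whether oocytes grown in vitro to day 10 differed from those grown in vivo. In IVG day 10 against IVV, 9 of 10 genes had a value below 0 and none passed, beside 2.76% of all genes (median of the 10 genes -0.37, median of all genes -0.20). The lowest fitted log2 fold changes were -1.07 ± 0.80 (SE) in Fbxw14, -0.96 ± 0.66 in Fbxw28 and -0.89 ± 0.73 in Fbxw22 (edgeR adjusted p = 1 for each), and the highest was 0.15 ± 0.55 in Fbxw16. Fbxw22 had 458, 269 and 400 normalized CPM in IVV and 184, 161 and 260.5 in IVG day 10. All 3 IVG libraries lay below all 3 IVV libraries in this gene and in no other member, beside 6.53% of all genes that were lower without overlap.

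These values moved with the kind of library. Between rRNA-rich libraries alone (1 IVV and 2 IVG) the median difference of the 10 genes was 0.35 and 7 were above 0, and between rRNA-poor libraries (2 IVV and 1 IVG) it was -0.49 and none was above 0. Fbxw14 went from 0.07 in rRNA-rich to -0.91 in rRNA-poor libraries, and Fbxw16 from 0.92 to -0.26. Fbxw22 was below 0 in both, at -0.64 and -0.71. With 1 library on a side, these are values without a test. With a term for kind in the edgeR fit the median was -0.0085, and it was -0.15 without IVV replicate 2 and -0.68 without IVV replicate 3.

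In IVG-NT day 10 against IVV, 5 genes were above and 5 below 0 and none passed, beside 3.29% of all genes (medians -0.08 and -0.19). The values ran from -0.65 ± 0.79 in Fbxw14 to 0.46 ± 0.55 in Fbxw16 (edgeR adjusted p = 1 for both). The IVV libraries are shared with the preceding comparison, so the values of the pair are not independent. Of the theca and stroma markers Col1a2 and Acta2 passed as lower than in IVV, at summed levels of 1.56 to 3.90 against 14.3 to 23.0 normalized CPM, and their part in the values was not tested. Within the kinds the medians were 0.37 in rRNA-rich and 0.10 in rRNA-poor libraries, with 9 and 7 genes above 0. With a term for kind the fitted median was 0.21, and leaving out 1 library moved it from -0.43 (without IVV replicate 3) to 0.15 (without IVV replicate 2).

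The effect of NT-4 at day 10 was asked by IVG-NT against IVG. All 10 genes had fitted values above 0, from 0.12 ± 0.70 in Fbxw21 to 0.52 ± 0.63 in Fbxw20 (edgeR adjusted p = 1 for both), and none passed, beside 1.24% of all genes. The median was 0.38, against 0.01 over all genes. The members share their libraries and correlate with one another, so that 10 values on a side are not 10 observations. The difference was larger between the rRNA-poor libraries: IVG-NT replicate 3 was above IVG replicate 3 in 10 of 10 genes (median log2 difference 0.74), whereas the rRNA-rich libraries gave a median of 0.10. Without replicate 3 of IVG-NT the fitted median was 0.02, and without its replicate 2 it was 0.59. The stroma marker Col1a2 passed as lower with NT-4 (edgeR adjusted p = 1), and the summed theca and stroma markers were at 1.56 to 3.90 normalized CPM against 0.562 to 36.6. Their part in the values was not tested.

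Fbxw20 had 559, 438 and 872 normalized CPM with NT-4 and 479, 378 and 449 without it at day 10, and Fbxw19 had 843, 641 and 1123 against 695, 559 and 678. In both, the highest value was replicate 3 of IVG-NT and the groups overlapped. Fbxw24, at 2558, 2109 and 2603 in IVG-NT and 2296, 1826 and 1816 in IVG, also overlapped (log2 fold change 0.29 ± 0.49).

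**Figure D3:**
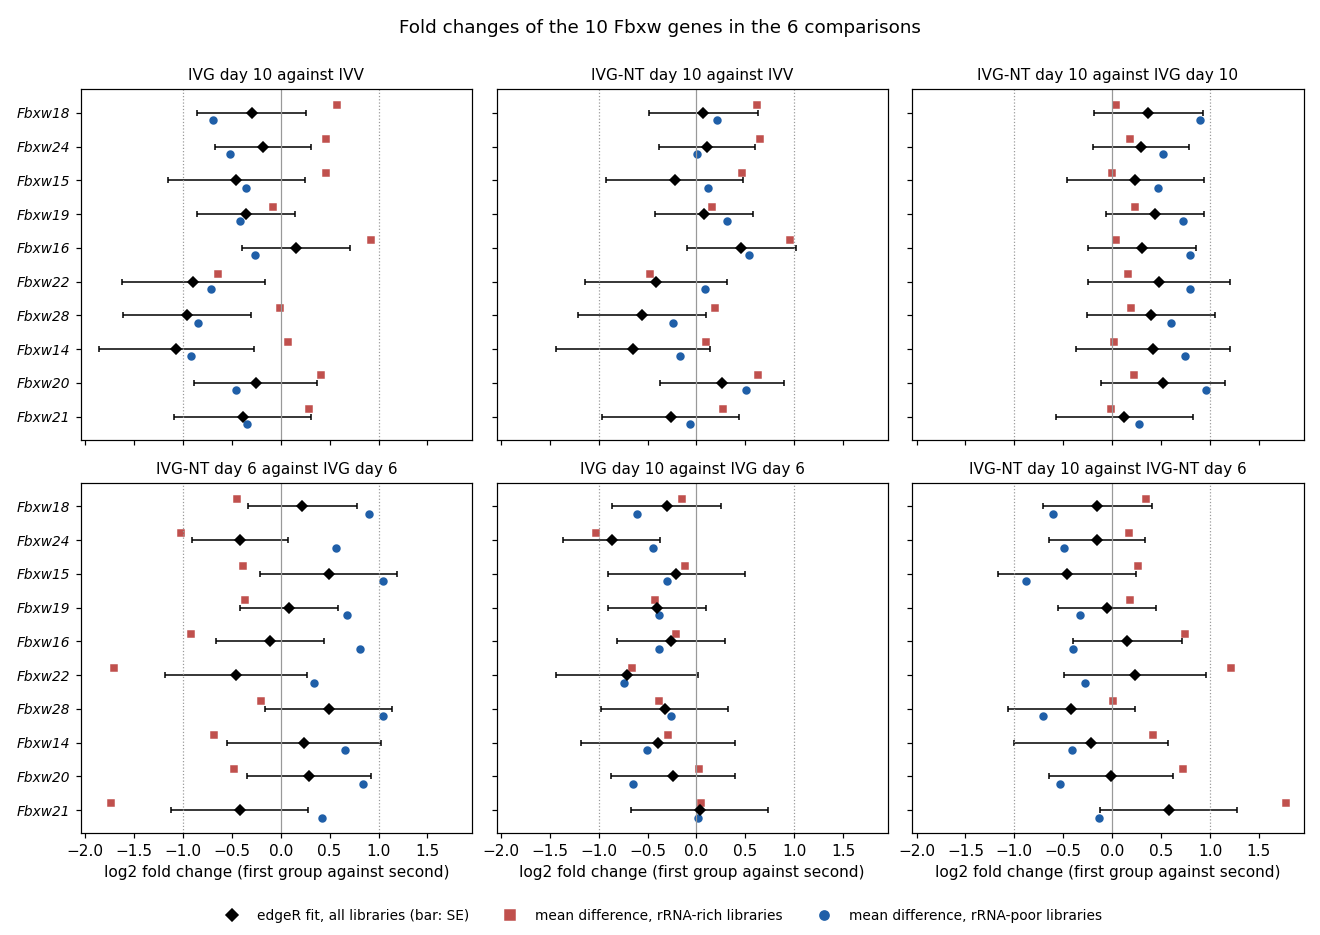
Log2 fold changes (horizontal) of the 10 Fbxw genes (vertical, in chromosomal order from the bottom) in the 6 comparisons, with black diamonds and SE bars for the edgeR fit, red squares for the difference of means among rRNA-rich libraries and blue circles for that among rRNA-poor libraries; dotted lines mark -1 and 1. The red and blue points fall on opposite sides of 0 for all 10 genes in IVG-NT day 6 against IVG day 6.

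At day 6 the IVG-NT group compared with IVG was made up of the 2 shallow libraries and the deeper, rRNA-poor replicate 3. None of the 10 genes passed, beside 11.6% of all genes, and 6 were above and 4 below 0 (median 0.15, all genes -0.27). In the rRNA-rich libraries, which include the shallow pair, 10 of 10 genes were lower with NT-4 (median -0.58, all genes -1.09), and in the rRNA-poor libraries 10 of 10 were higher (median 0.74, all genes -0.14). Without the shallow pair the fitted median was 1.01, and without replicate 3 of IVG-NT it was -0.75. The direction in this comparison thus changed with the libraries used. Of the granulosa cell markers 3 passed as lower with NT-4 (Hsd17b1, Fst and Fshr), with a summed level of 50.1 to 259 against 55.1 to 174.5 normalized CPM. Of the macrophage and blood cell markers 3 passed as higher (Csf1r, Tyrobp and Lyz2), at 5.05 to 59.6 against 20.3 to 64.6. The stroma marker Dcn also passed as higher, with its list at 0 to 7.71 against 0 to 2.94. Of the oocyte markers Padi6 passed as lower (-1.42 ± 0.65), and their sum was 18250 to 27950 against 31360 to 33760. The part of these lists in the Fbxw values was not tested.

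Fbxw21 and Fbxw22 showed this most. Fbxw21 had 133, 172 and 1013 normalized CPM in IVG-NT day 6 and 498, 510 and 754 in IVG day 6, and Fbxw22 had 98, 71 and 550 against 228, 326 and 436. The shallow pair was the lowest and the third library the highest of all 6. With all libraries the log2 fold changes were -0.42 ± 0.70 and -0.46 ± 0.73 (edgeR adjusted p = 0.903 and 0.889). Among rRNA-rich libraries alone they were -1.80 and -1.80 and passed the rule, where the median of all genes was also below 0. How many of all genes passed among these libraries is not given here.

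The 2 comparisons of day 10 with day 6 follow growth in culture. Without NT-4, 9 of 10 genes had values below 0 and none passed, beside 2.90% of all genes (median -0.31, all genes 0.05). Fbxw24 had the lowest p, with 2296, 1826 and 1816 normalized CPM at day 10 and 4163, 4195 and 2473 at day 6 and a log2 fold change of -0.87 ± 0.49 (edgeR adjusted p = 1). Its groups did not overlap, nor did those of Fbxw16 and Fbxw19, beside 2.95% of all genes that were lower at day 10 without overlap. Fbxw19 had 695, 559 and 678 against 819, 850 and 883, and Fbxw16 had 783, 818 and 677 against 976, 872 and 882, with log2 fold changes of -0.40 ± 0.50 and -0.26 ± 0.55.

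Values were below 0 in both kinds of library for 8 of the 10 genes, the exceptions being Fbxw20 and Fbxw21. The median was -0.25 in rRNA-rich and -0.41 in rRNA-poor libraries. For Fbxw24 the difference was -1.03 in rRNA-rich and -0.45 in rRNA-poor libraries, and in a fit of the rRNA-rich libraries alone it passed the rule at -1.05. The share of all genes passing in that fit is not given here, so this call cannot be set against a background. Without IVG day 6 replicate 3 the fitted median was -0.13, and without IVG day 10 replicate 3 it was -0.48. The 20 oocyte markers had a median of -0.29, with Zp2, a zona pellucida gene, past the rule (-1.29 ± 0.60, edgeR adjusted p = 1), and their summed level was 22030 to 27240 normalized CPM at day 10 and 31360 to 33760 at day 6 without overlap. Granulosa cell markers moved in this comparison too: Inhba and Inhbb passed as higher at day 10, and the summed level of the 15 markers was 103 to 441 at day 10 and 55.1 to 174.5 normalized CPM at day 6. The part of either list in the values of the Fbxw genes was not tested.

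With NT-4, day 10 against day 6 gave 3 values above and 7 below 0 and none passed, beside 12.7% of all genes (median -0.10, all genes 0.40). The highest was 0.58 ± 0.70 in Fbxw21 and the lowest -0.46 ± 0.70 in Fbxw15. The kinds again pointed in opposite directions, with a median of 0.38 and 10 of 10 above 0 in rRNA-rich and of -0.45 and 0 of 10 above 0 in rRNA-poor libraries. Without the shallow pair the fitted median was -1.08. In this comparison 6 granulosa cell markers passed as higher at day 10 (Hsd17b1, Fst, Fshr, Inha, Inhbb and Inhba), at summed levels of 145 to 329 against 50.1 to 259 normalized CPM. Of the macrophage and blood cell markers Csf1r and Tyrobp passed as lower and Hbb-bs as higher at day 10, at summed levels of 5.24 to 58.5 against 5.05 to 59.6. The part of both lists was not tested. Among rRNA-rich libraries Fbxw21 and Fbxw22 passed as higher at day 10 (1.84 and 1.27), with a median of all genes of 1.42 in the difference of means. How many of all genes passed among these libraries is not given here.

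The difference of the NT-4 effect between day 10 and day 6, tested as an interaction, passed in 0 of 10 genes and in 6.37% of all genes. The members' values ran from -0.25 ± 0.99 in Fbxw15 to 0.94 ± 1.03 in Fbxw22, with a median of 0.29 against 0.33 over all genes. Markers of other cells that passed were Fst, higher, and Col1a2, Csf1r and Tyrobp, lower, and their part was not tested.

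The members varied together across libraries. Over the 15 libraries all 45 pairs had a Pearson correlation of log2 CPM above 0, from 0.322 (Fbxw21 with Fbxw24) to 0.954 (Fbxw15 with Fbxw28), with a median of 0.779. After the mean of each kind of library was subtracted the range was 0.172 to 0.891 and the median 0.613. Fbxw14 and Fbxw28, which share sequence, had 0.901 and 0.528. The 15 points share kinds, depth and groups, so these coefficients describe the libraries and carry no p. Correlations between pairs of other genes are not given here, so the values do not set the members apart from other genes.

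Among 7463 abundant genes outside the 10, the mean profile of the members was followed most closely by Apoo (r = 0.919), Ccnb2 (0.911), Tpgs2 (0.904), Oas1e (0.899) and Lrr1 (0.896). Ccnb2 encodes cyclin B2, a partner of CDK1. With the kind means subtracted the closest were Fbxw26 (0.897), Mest (0.891), Laptm4a (0.802), Ski (0.784) and Paip1 (0.783). Fbxw26, next to Fbxw18 in the cluster, appeared only in the latter list of 5.

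The 5 further Fbxw genes of the cluster were less abundant than Fbxw24 and Fbxw18. Fbxw26 had a median of 315 FPKM, Fbxw13 105, Fbxw27 77.6, Fbxw25 72.5 and the pseudogene Fbxw23 49.2. The median of Fbxw26 was above those of the members Fbxw14 (309), Fbxw19 (235), Fbxw21 (228), Fbxw20 (185) and Fbxw22 (142). Fbxw27 stood out for its difference by kind: its normalized CPM was 893 and 924 in the rRNA-poor and 69.7 in the rRNA-rich library of IVV, and 562, 747, 639 and 869 in the rRNA-poor libraries of the 4 cultured groups, against 105 to 218 in their rRNA-rich libraries. In Fbxw26 the rRNA-poor libraries, for example 450 in IVG day 10, were not all above the rRNA-rich ones, which reached 718. The map of levels along the cluster shows no single gradient from one end to the other.

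**Figure D4:**
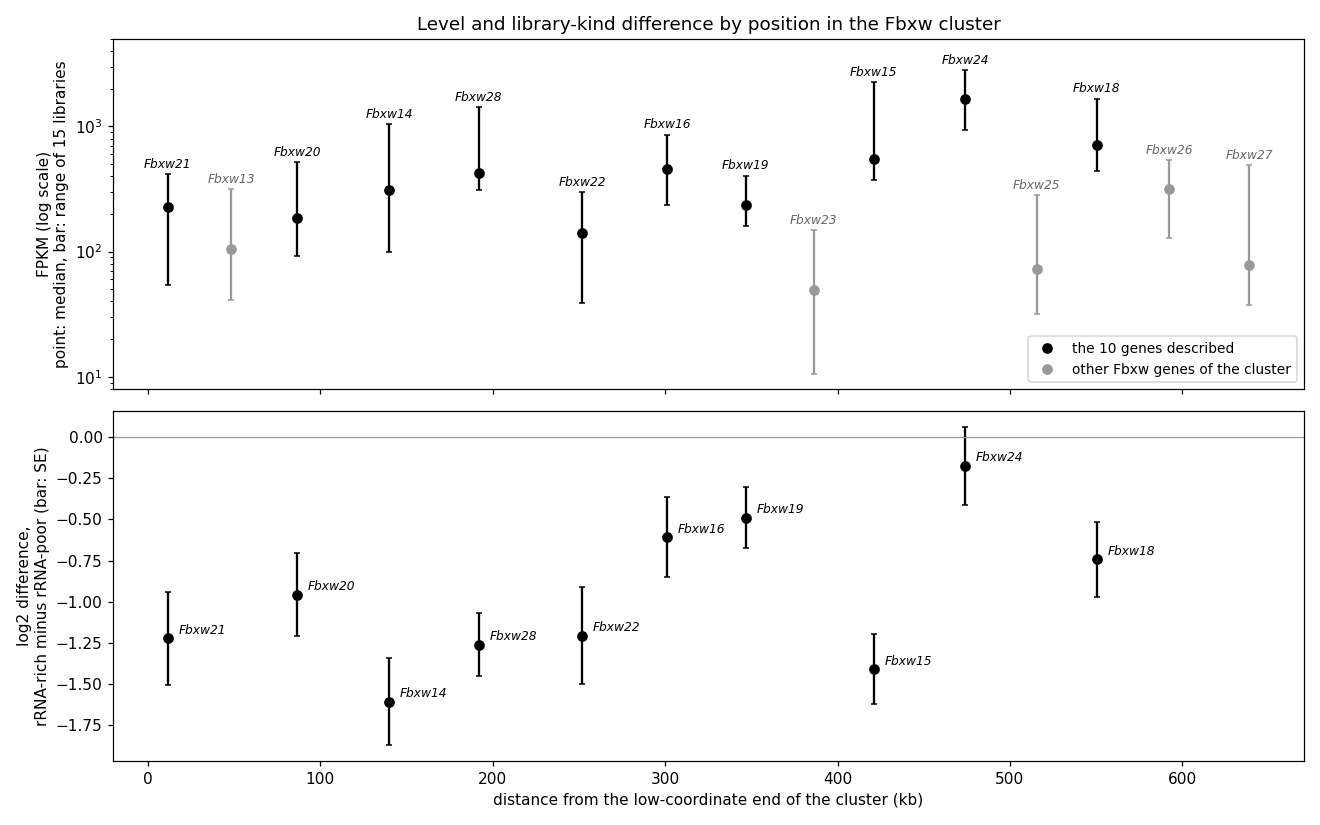
FPKM (upper, log axis) of the 15 Fbxw genes of the cluster and the log2 difference of rRNA-rich minus rRNA-poor libraries of the 10 genes described (lower), by distance from the low-coordinate end of the cluster in kb; points are medians with the range of 15 libraries above and fitted values with SE below. Fbxw24 has the highest median, 1662, and the difference nearest to 0, -0.17, while its neighbour Fbxw15 is at -1.41.

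Of 15 other Fbxw genes, inside and outside the cluster, 15 were tested and 0 passed in any comparison, and their medians ran from -0.41 (IVG-NT day 6 against IVG day 6) to 0.15 (the interaction). The SCF core and its regulators were represented by 22 genes, all tested. None passed in the 3 comparisons at day 10. Skp1a, which encodes the adaptor that binds F-boxes, was lower in IVG day 10 than in IVG day 6 (-1.05 ± 0.49, edgeR adjusted p = 1). This was 1 of 22 genes, beside 2.90% of all genes in that comparison. Cand1, the exchange factor of cullin ligases, and Dcun1d1, a neddylation co-factor, were lower in IVG-NT day 6 than in IVG day 6 (-1.42 ± 0.58 and -1.52 ± 0.71, adjusted p = 0.393 and 0.427). Cops2, a subunit of the COP9 signalosome, and Uba3, of the NEDD8-activating enzyme, were higher in IVG-NT day 10 than in IVG-NT day 6 (2.01 ± 0.82 and 1.79 ± 0.83, adjusted p = 0.357 and 0.392). In each of these comparisons 2 of 22 genes passed. The last 4 genes rest on comparisons with the shallow libraries, in which 11.6% and 12.7% of all genes passed.

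Among 13 other F-box genes of oocytes and the cell cycle, Fbxl14 alone passed, lower in IVG-NT day 6 than in IVG day 6 (-1.93 ± 0.88, edgeR adjusted p = 0.42) and higher in IVG-NT day 10 than in IVG-NT day 6 (2.03 ± 0.89, edgeR adjusted p = 0.372). These are the comparisons with the shallow libraries, in which 11.6% and 12.7% of all genes passed, against 1 of 13 here.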

How the data were processed

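The authors amplified oocyte pools by SMART-Seq2 and removed adaptors and low-quality reads. FastQC, HISAT2 and edgeR are named in the submitters' processing notes, with mm10 as the build. The deposited values are raw read counts per Ensembl gene, not normalized; the counting settings, strand handling and annotation release are not given in the sources used here. Symbols were taken from GENCODE vM21 (99.5% of identifiers). From the counts, TMM-scaled CPM and FPKM (by summed exon length) were computed, and genes were filtered (filterByExpr, minimum count 10), leaving 21009. edgeR 4.0.16's quasi-likelihood test (R 4.3.3, p adjusted by Benjamini-Hochberg) was fitted to the 5 groups of 3 libraries together, with DESeq2 1.42.0 as an alternative, after a test on simulated data. Libraries were called rRNA-rich where CT010467.1 exceeded 5% of counts. Depth was 5954262 to 55593251 counts, which leaves every member at 410 counts or more. Per the study's methods the 3 libraries of a group came from 3 repeats of the experiment; which animals each used is not given, and no label ties a replicate number to an experiment, so p-values measure the spread between these libraries.

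The members, gene lists and motifs were chosen with earlier results of these data known. Named genes are the 10 members, list genes past the threshold, the Fbxw genes of the cluster and the 5 genes of most similar profile; marker genes past the threshold are named beside them. Sequence identity was computed from transcripts and RefSeq promoters with Biopython 1.88. Replicate numbers were checked for pairing. Deviations from group means correlated at 0.37, 0.413 and 0.732 between IVG-NT day 10 and IVG day 10. For IVG day 10 and IVG day 6 the values were 0.23, 0.147 and 0.538. Replicate 3 is the rRNA-poor library of each cultured group, so pairing and kind of library cannot be told apart in these values. A replicate block was therefore fitted as an alternative and not as a known pairing. Between other groups at least 1 pair was at or below 0.1. Alternatives changed the filter, the libraries, the tool and the model terms.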

Additional observations from a re-analysis of the deposited data

How the results depend on the processing

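No fold change of a member was reversed past the threshold. Over 23 settings, 1000 recomputed fold changes of the 70 were compared, of which 14 passed the threshold only in the alternative and 150 changed sign without passing in either; 72 of these came from leaving out 1 library, 27 from rRNA-rich libraries only, 14 from rRNA-poor libraries only and 11 from DESeq2. With rRNA-rich libraries only, the median of the members was 0.38 for IVG day 10 against IVV and -0.51 for IVG-NT day 6 against IVG day 6, and the number of members past the threshold, 0 in the fit of all libraries, was 2 for IVG-NT day 6 against IVG day 6, 1 for IVG day 10 against IVG day 6, 2 for IVG-NT day 10 against IVG-NT day 6 and 3 for the interaction (Fbxw16, Fbxw21 and Fbxw22). The share of all genes passing in these rRNA-rich fits is not given here, so the counts do not set the members apart. Without the 2 shallow IVG-NT day 6 libraries, a setting added after seeing the data, the medians were 1.01, -1.08 and -0.77 for IVG-NT day 6 against IVG day 6, IVG-NT day 10 against IVG-NT day 6 and the interaction. Leaving out 1 library at a time gave medians of -0.75 to 0.44, -0.47 to 0.88 and -0.053 to 1.11 in these 3 and 0 to 2 members past the threshold in each, where the values of 2 (Fbxw21 and Fbxw22) and of -0.75, 0.88 and 1.11 came without IVG-NT day 6 replicate 3. Without that replicate 6817, 7211 and 4956 of all genes passed in these 3, so 2 members past the threshold do not stand out. In the other 4 comparisons no member passed when 1 library was left out, and the medians were -0.68 (without IVV replicate 3) to -0.15 (without IVV replicate 2) for IVG day 10 against IVV, -0.43 to 0.15 without the same 2 libraries for IVG-NT day 10 against IVV, 0.02 to 0.59 (without replicates 3 and 2 of IVG-NT) for IVG-NT day 10 against IVG day 10 and -0.48 to -0.13 (without replicate 3 of IVG day 10 and of IVG day 6) for IVG day 10 against IVG day 6. With a term for kind in the fit the first 2 of these medians were -0.0085 and 0.21. Where 1 library of a group remained, it was assumed to vary like the other groups. The cause of these changes was not tested. Fitted with the replicate block, 0 members passed in any comparison, the medians were 0.31 for IVG-NT day 10 against IVG day 10 and -0.31 for IVG day 10 against IVG day 6, 3 signs changed, and the number of all genes past the threshold in these 2 comparisons was 127 and 360. The number of members lower in rRNA-rich libraries was 7, and 5 to 8 with 1 library left out, 5 being without IVG-NT day 6 replicate 3. Of all genes, 4983 of 21009 passed in either direction with all libraries (edgeR adjusted p under 0.05). Without that replicate 4166 of 23447 did.

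The number of all genes past the threshold varied more: 199 to 1637 (579 in the fit of all libraries) for IVG day 10 against IVV, 235 to 1580 (691) for IVG-NT day 10 against IVV, 28 to 427 (261) for IVG-NT day 10 against IVG day 10, 451 to 6817 (2430) for IVG-NT day 6 against IVG day 6, 311 to 1022 (609) for IVG day 10 against IVG day 6, 657 to 7211 (2661) for IVG-NT day 10 against IVG-NT day 6 and 534 to 4956 (1339) for the interaction.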
